A study of Mus musculus with 8 samples.

Results

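The RGS genes (regulators of G protein signaling) of the mouse islet were examined in bulk RNA-seq of 8 mice. The group holds 10 genes, Rgs16, Rgs2, Rgs4, Rgs5, Rgs7, Rgs8, Rgs9, Rgs10, Rgs11 and Rgs17, found by matching the Ensembl identifiers of the count table to their symbols, out of 53012 identifiers in the table and 15474 genes with enough counts to be tested. All 10 had enough counts. Rgs16 was picked because its level was lower in knockdown islets, so its difference between the groups is given as a description without a test, and the other 9 genes are members of its family. The 11 remaining mouse genes named Rgs with a number were looked up as well, of which 5 had enough counts.

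Islets came from 4 βIgf1rKD (KD) and 4 βIgf1r (CTRL) mice aged 17 months, both sexes in each group, with 1 library per mouse. All 8 mice were homozygous for an Igf1r allele with exon 3 between loxP sites. The βIgf1rKD mice carried 1 copy of Ins1-CreERT2, a Cre recombinase activated by tamoxifen that the methods place under a rat insulin promoter, and received tamoxifen by intraperitoneal injection at 0.075 mg/g in 5 injections. The βIgf1r mice lacked Cre and were given corn oil. Isolation of the islets followed 7 days after the final injection. Cre, tamoxifen and loss of Igf1r therefore cannot be told apart. The preparations held the hormone transcripts of islets, with Ins2 at 90221 to 138537 CPM (counts scaled to library size) over the 8 mice and Gcg at 11938 to 38220 CPM. Acinar markers, a list of 12 genes, summed to 20086 to 201054 CPM in βIgf1r and 43784 to 246434 CPM in βIgf1rKD mice. Library totals lay between 21633925 and 42391106 counts. Igf1r, the targeted gene, ranged from 46.8 to 60.9 CPM over the βIgf1r mice and from 46.9 to 57.9 CPM over the βIgf1rKD mice. Its log2 fold change (βIgf1rKD over βIgf1r) was -0.08 with a standard error of 0.11 (edgeR, quasi-likelihood, adjusted p = 0.988), and counts of the whole gene do not separate exon 3.

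RGS proteins shorten the signal of G-protein-coupled receptors. A receptor loads the α subunit of a G protein with GTP, and the RGS domain speeds up the hydrolysis of that GTP, which ends the signal to adenylyl cyclase, phospholipase C or ion channels. The family is divided by sequence into subfamilies. The R4 proteins (here Rgs2, Rgs4, Rgs5, Rgs8 and Rgs16) are small and consist of little more than the RGS domain, whereas the R7 proteins (Rgs7, Rgs9 and Rgs11) are larger and work as dimers with the β subunit Gnb5. Rgs10 belongs to the R12 and Rgs17 to the RZ subfamily. In islets such receptors set hormone release in both directions, since receptors for adrenaline, somatostatin and galanin act through inhibitory G proteins and the muscarinic receptor Chrm3 acts through Gq. Rgs16 and Rgs8 are known from reporter mice as genes of developing endocrine cells of the pancreas, and Rgs4 is known as a brake on Chrm3 in β-cells.

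The R4 genes are close relatives by sequence and position. Of the 10 members 6 lie on chromosome 1, which holds 5.50% of the protein-coding genes of the GENCODE M21 annotation (GRCm38), and 9 of the 10 mouse R4 genes are there. Rgs16 (ENSMUSG00000026475, plus strand, 153740349 to 153745468) has a single annotated transcript and starts 40025 bases after the end of Rgs8. Rgs5 (169655501 to 169695813) and Rgs4 (169741477 to 169747642) lie 45663 bases apart and are read toward each other. To show how alike the members are, the stretch of 60 coding bases within 1 exon of Rgs16 that is most like Rgs8 is given, with the best matching coding stretch of 4 other R4 genes. It lies in the RGS domain, in exon 4 of 5 of Rgs16, chr1:153741992-153742051 on the plus strand. The other stretches are in chr1:153690927-153690986 (Rgs8, exon 6 of 7, plus strand), chr1:169744429-169744488 (Rgs4, exon 4 of 5, minus strand), chr1:169690445-169690504 (Rgs5, exon 4 of 5, plus strand) and chr1:144002194-144002253 (Rgs2, exon 4 of 5, minus strand). Capitals mark the bases that differ from Rgs16.
Rgs16: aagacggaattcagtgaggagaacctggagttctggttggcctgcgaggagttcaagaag
Rgs8: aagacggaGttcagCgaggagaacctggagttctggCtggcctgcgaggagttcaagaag
Rgs5: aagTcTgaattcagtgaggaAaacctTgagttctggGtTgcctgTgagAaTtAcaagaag
Rgs4: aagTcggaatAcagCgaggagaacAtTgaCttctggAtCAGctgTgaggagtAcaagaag
Rgs2: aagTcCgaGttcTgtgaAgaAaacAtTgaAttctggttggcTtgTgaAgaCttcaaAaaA
Rgs8 differed from Rgs16 at 3 of the 60 bases, Rgs5 at 10, Rgs4 at 12 and Rgs2 at 15. Even so, no window of 31 bases from the Rgs16 transcript occurs in the same direction in a transcript of any other annotated gene. The same holds for Rgs2 and Rgs10. For the other 7 members between 0.0664% and 3.21% of such windows do, the highest share in Rgs9. Counts of Rgs16 and Rgs8 can therefore be read as separate genes at this window length and in this direction. Reverse complements were not searched. A short antisense gene, Gm28513, overlaps the end of Rgs16 and was listed at 1 count in 1 mouse and 0 in the other 7.

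The order of the levels was read per length, as CPM per kb of the mean transcript length of each gene, since CPM alone favours long transcripts. Rgs5, which is widely used as a marker of pericytes, stood highest with 40.5 ± 6.83 CPM per kb (SD, n = 8), followed by Rgs2 with 36.2 ± 20.6 and Rgs11 with 25.4 ± 5.51 CPM per kb (SD, n = 8 each). The spreads of Rgs5 and Rgs2 overlapped, and Rgs5 was above Rgs2 in 5 of 8 mice. Rgs3, an R4 gene outside the 10, came next with 18.6 ± 2.41 CPM per kb (SD, n = 8).

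Rgs4 at 16.96 ± 13.8 and Rgs9 at 13.1 ± 2.02 CPM per kb (SD, n = 8 each) did not differ beyond their spread, with Rgs4 higher in 4 of 8 mice. Rgs7 at 9.78 ± 1.59 and Rgs16 at 7.80 ± 3.09 CPM per kb (SD, n = 8 each) were neighbours over all 8 mice, but Rgs16 is a mean over groups that differ. In βIgf1r mice Rgs7 was at 10.2 ± 1.39 and Rgs16 at 10.3 ± 2.40 CPM per kb (SD, n = 4 each), whereas in βIgf1rKD mice Rgs16, at 4.59 to 5.96, lay below Rgs7, at 6.90 to 11.4 CPM per kb. Rgs10 followed at 4.68 ± 0.852 and Rgs17 at 1.29 ± 0.362 CPM per kb (SD, n = 8 each), and Rgs8, the neighbour of Rgs16 on the chromosome, was lowest among the members at 0.267 ± 0.0978 CPM per kb (SD, n = 8). Rgs16 was above Rgs10 in 6 of 8 mice, and in the βIgf1rKD group their means were 5.35 and 5.13 CPM per kb with Rgs10 higher in M149 and M150. Which transcripts of a gene are used is not known from gene counts. With the longest transcript in place of the mean, Rgs5, Rgs2 and Rgs11 kept the first places at 23.8, 15.1 and 13.7 CPM per kb, while Rgs4 moved above Rgs3 and Rgs16, at 7.80, above Rgs7, at 4.43 CPM per kb.

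**Figure D1:**
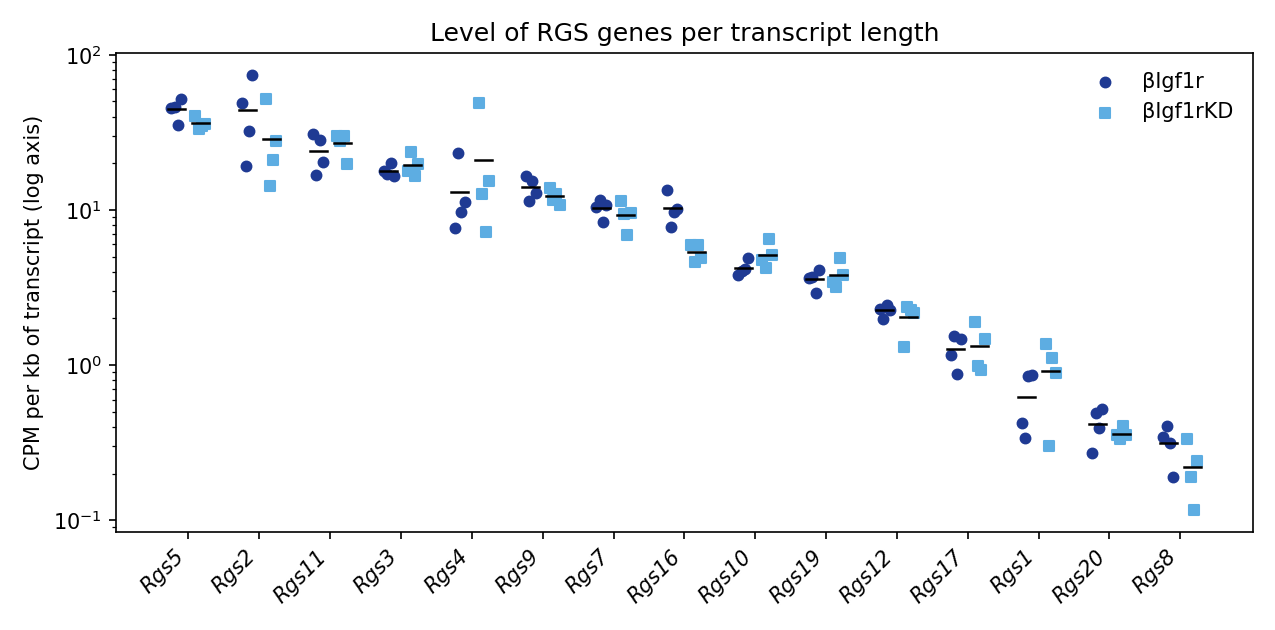
Level of the 15 RGS genes with enough counts, as CPM per kb of mean transcript length on a log axis, in each of 4 βIgf1r (dark circles) and 4 βIgf1rKD (light squares) mice, with the group mean as a line. Genes are ordered by their mean over the 8 mice, from Rgs5 at 40.5 to Rgs8 at 0.267 CPM per kb.

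The level of Rgs5 was set beside pericyte markers measured in the same libraries. Of 12 such markers, among them Pdgfrb, Notch3 and Acta2, 0 had a higher level per kb than Rgs5, and the highest, Acta2, was at 5.89 CPM per kb against 40.5 for Rgs5. The 12 markers summed to 58.5 to 79.2 CPM in βIgf1r and 44.4 to 89.4 CPM in βIgf1rKD mice, and Rgs5 alone was at 80.3 to 126 CPM over the 8 mice, above that sum in each mouse other than M150 (86.6 against 89.4 CPM). Within the groups the correlation of Rgs5 with this sum was low and negative (Pearson r = -0.21, Spearman rho = -0.43 after subtracting group means, 8 mice, r = -0.09 without the 2 mice farthest from the median). Bulk RNA does not tell which cells carry Rgs5.

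Rgs16 was lower in βIgf1rKD than in βIgf1r islets, which is how it was chosen. In βIgf1r mice it was at 31.6 CPM in M148, 18.1 in M151, 22.7 in M152 and 23.7 in M153. In βIgf1rKD mice it was at 13.9 CPM in M145, 10.7 in M146, 13.9 in M149 and 11.5 in M150. Every βIgf1rKD mouse thus lay below every βIgf1r mouse. The means were 24.0 ± 5.62 and 12.5 ± 1.65 CPM (SD, n = 4 each), and the log2 fold change was -0.94 with a standard error of 0.17, or 0.520 of the βIgf1r level. Among all 15474 genes, 2.22% did not overlap between the groups and 1.27% did so with the lower values in βIgf1rKD mice, a value from which nothing is read here because the difference chose the gene. The counts behind these values, 298 to 1187 per mouse, were well above the filter.

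**Figure D2:**
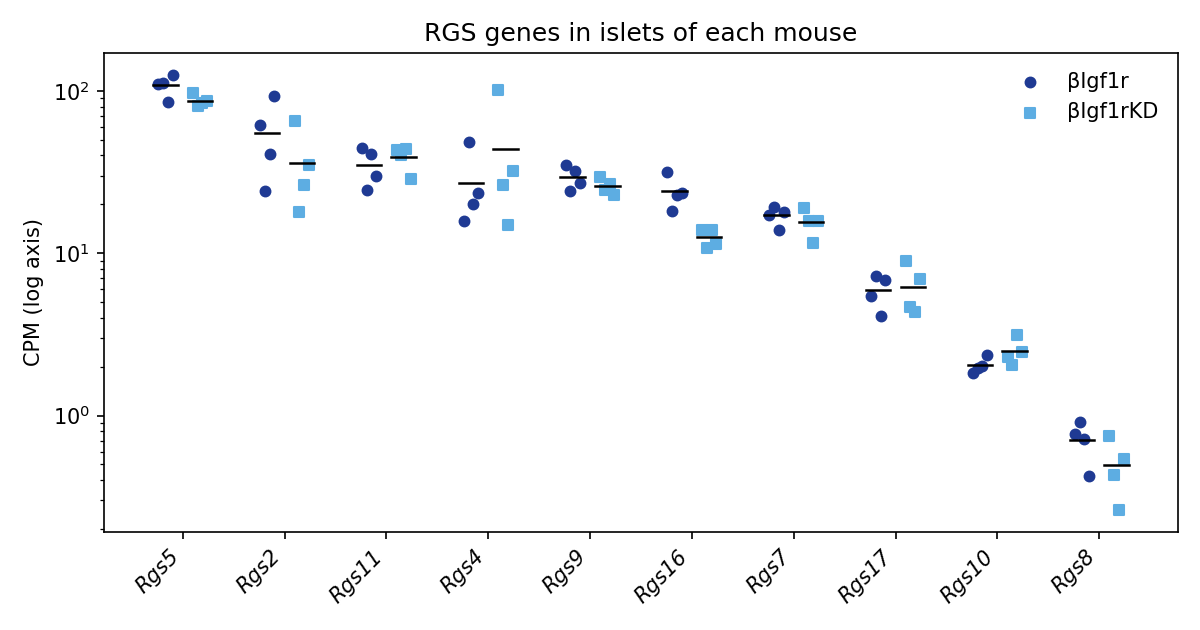
CPM of the 10 RGS genes in each mouse, on a log axis, for 4 βIgf1r (dark circles) and 4 βIgf1rKD (light squares) mice, with the group mean as a line. For Rgs16 the 4 βIgf1rKD mice, at 10.7 to 13.9 CPM, lie below the 4 βIgf1r mice, at 18.1 to 31.6 CPM, and for the other 9 genes the groups overlap.

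The difference of Rgs16 was then described relative to other transcripts of the same library, which removes any effect of scaling. The values that chose Rgs16 enter each ratio, so whether the groups overlap is a description and not a test. Relative to Iapp, a hormone secreted with insulin, the mean log2 ratio of Rgs16 was -9.51 in βIgf1r and -10.22 in βIgf1rKD mice, a difference of -0.71 with no overlap. Relative to Nkx6-1, a transcription factor of β-cells, the difference was -1.11, and relative to the R7 genes Rgs9 and Rgs11 it was -0.73 and -1.10, again without overlap. Relative to Ins2, Chga and Pcsk2 the groups did not overlap either, with differences between -0.94 and -0.81. Relative to G6pc2, Pdx1, Slc2a2, Rgs5 and Rgs7 the groups overlapped, with differences between -1.03 and -0.62. Relative to Ins1, the second insulin gene of the mouse, no difference was seen in the mean log2 ratio, which was -10.75 in both groups with SDs of 0.31 and 0.44. Ins1 itself was at 31089 to 50373 CPM in βIgf1r and 19119 to 28541 CPM in βIgf1rKD mice, without overlap (log2 fold change -0.92, SE 0.33, edgeR, unadjusted p = 0.0204, adjusted p = 0.987). For Ins2 the log2 fold change was -0.08 (SE 0.41), and its groups overlapped. The βIgf1rKD mice alone carried the Cre named Ins1-CreERT2, and whether it bears on the level of Ins1 was not tested.

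Endothelial markers also had lower means in βIgf1rKD islets. Of 12 listed, 11 could be tested and all 11 had a negative log2 fold change, with a median of -0.28, and their sum was 545 to 683 CPM in βIgf1r and 491 to 542 CPM in βIgf1rKD mice. At an unadjusted p under 0.05 there were 5 of the 11, all lower, where 1.89% of all genes were, among them Kdr and Flt1, receptors for VEGF, and 0 passed after adjustment in edgeR. Other cell types also differed in their means, with 12 of 12 acinar markers higher (median log2 fold change 0.84), 5 of 6 duct markers higher (median 0.61) and 7 of 7 Schwann cell markers lower (median -0.39), of which 0 had an unadjusted p under 0.05. Of 8 leukocyte markers tested 6 were higher (median 0.40). Among these 8 genes 1 had an unadjusted p under 0.05, with the higher mean in βIgf1rKD mice, where 2.23% of all genes did. Relative to Pecam1, an endothelial adhesion molecule, Rgs16 was lower by a log2 difference of -0.68 without overlap of the groups. This ratio holds the difference that chose Rgs16, and Pecam1 itself had a log2 fold change of -0.24. A score of the endothelial markers, whose sum separates the groups, was also entered in the fit as a covariate. Rgs16 then had a log2 fold change of -0.40 (SE 0.25) in place of -0.94 (SE 0.17). With an acinar score it had -0.94 (SE 0.20). These fits hold the values that chose Rgs16, and the part of endothelial cells in its level was not tested. In bulk islets, fewer cells of a type and less RNA per cell cannot be told apart. Leaving out M148, the βIgf1r mouse with the most Rgs16, gave a log2 fold change of -0.78.

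None of the other 4 members of the R4 subfamily, Rgs2, Rgs4, Rgs5 and Rgs8, passed the test after adjustment. Over all 15474 genes, 0 genes (0%) passed an adjusted p of 0.05 in edgeR, 637 (4.12%) had an unadjusted p under 0.05, and DESeq2 and limma-voom called 8 and 1 genes after adjustment. Of the 9 members other than Rgs16, 1 had an unadjusted p under 0.05 with lower values in βIgf1rKD mice and 0 with higher values, against 1.89% and 2.23% of all genes. That gene was Rgs5. It was at 110, 112, 85.2 and 126 CPM in βIgf1r mice M148, M151, M152 and M153, and at 97.3, 80.3, 84.2 and 86.6 CPM in βIgf1rKD mice M145, M146, M149 and M150. M152 fell within the range of the βIgf1rKD mice, so the groups overlapped. The log2 fold change of Rgs5 was -0.31 with a standard error of 0.12 (edgeR, unadjusted p = 0.0271, adjusted p = 0.987). The unadjusted p was above 0.05 without M148, M151, M153, M146, M149 or M150, at 0.0546 to 0.0753, and with the acinar (0.0686) or endothelial (0.174) score as a covariate. In edgeR it was 0.00181 without M152 and 0.0199 without M145, and in DESeq2 it was 0.0126 with all 8 mice. Of the 12 pericyte markers, 9 had lower and 3 higher means in βIgf1rKD mice, with a median log2 fold change of -0.25. Among them 1, Kcnj8, had an unadjusted p under 0.05 (log2 fold change -0.52, SE 0.22) without overlap of the groups. Over all genes, 1.89% had such a p and 1.27% did not overlap, with the lower values in βIgf1rKD mice. With the pericyte score as a covariate the log2 fold change of Rgs5 was -0.36.

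Rgs2, which acts mainly on Gq and is quickly induced by many stimuli, spread widely within both groups. It was at 61.8, 24.2, 40.6 and 93.3 CPM in M148, M151, M152 and M153 of the βIgf1r group and at 65.3, 18.0, 26.2 and 34.7 CPM in M145, M146, M149 and M150 of the βIgf1rKD group. The ranges overlapped, with a log2 fold change of -0.61 (SE 0.46; edgeR, adjusted p = 0.987) that went from -0.24 without M153 to -1.06 without M145. Rgs4 spread even more. It was at 15.9, 48.5, 20.2 and 23.5 CPM in M148, M151, M152 and M153 and at 101, 26.2, 15.0 and 31.9 CPM in M145, M146, M149 and M150. The higher mean of the βIgf1rKD group rested on M145, since the log2 fold change of 0.69 (SE 0.56; edgeR, adjusted p = 0.987) became -0.14 without that mouse. With Xist as a covariate, to allow for the mix of sexes, it was 0.01. Rgs8 had 6 to 29 counts per mouse and a log2 fold change of -0.52 with a 95% interval from -1.41 to 0.38, which holds the value of Rgs16.

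**Figure D3:**
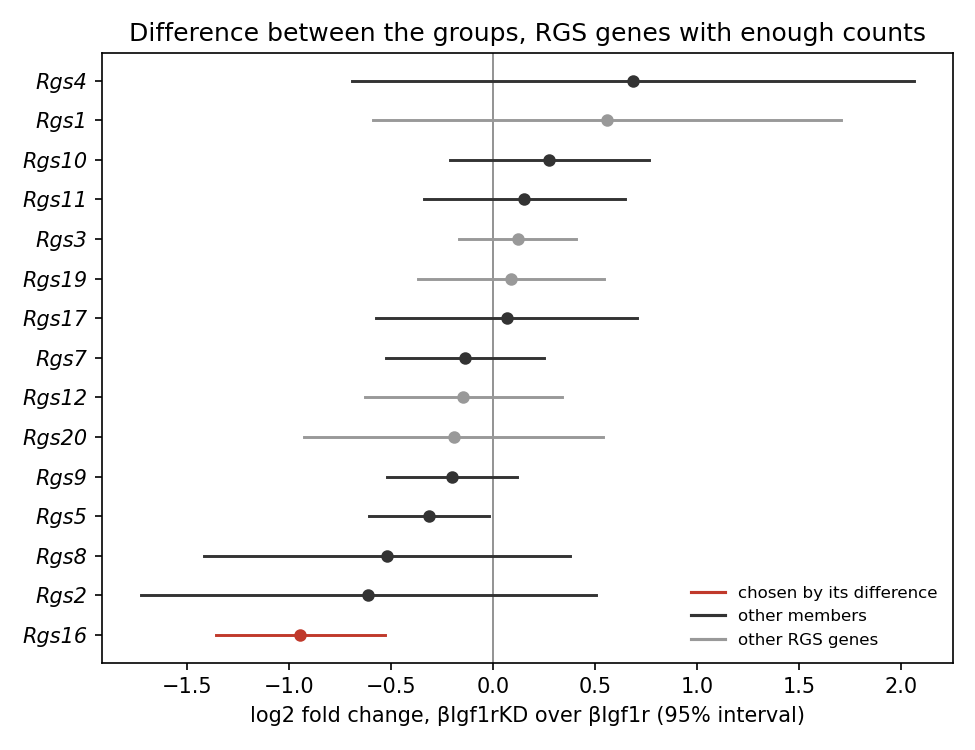
Log2 fold change of βIgf1rKD over βIgf1r islets for the 15 RGS genes with enough counts, with 95% intervals from the standard error and 6 residual degrees of freedom. Rgs16 (red) was chosen by this difference, and of the other 14 genes the interval of Rgs5 alone, from -0.60 to -0.02, does not reach 0.

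The groups overlapped for the 3 R7 members, and 0 of the 3 had an unadjusted p under 0.05. Rgs9, known from photoreceptors and striatum, was at 24.1 to 35.0 CPM in βIgf1r and 22.7 to 29.4 CPM in βIgf1rKD mice, a log2 fold change of -0.20 with an interval from -0.52 to 0.12. Rgs11 was at 24.4 to 44.7 CPM and 28.6 to 43.7 CPM, a log2 fold change of 0.16 (SE 0.20) with an interval from -0.34 to 0.65. For Rgs7, at 13.8 to 19.3 CPM and 11.5 to 19.0 CPM, the log2 fold change was -0.14 with an interval from -0.52 to 0.25. These intervals leave room for moderate changes in both directions. Rgs10, which is abundant in leukocytes and brain, was at 1.84 to 2.37 CPM in βIgf1r and 2.04 to 3.13 CPM in βIgf1rKD mice, with the highest value in M149, the mouse with the largest sums of leukocyte (233 CPM), acinar (246434 CPM) and duct (303 CPM) markers. Within the groups Rgs10 was correlated with the acinar sum at r = 0.65 and with the leukocyte sum at r = 0.62 (rho = 0.71 each, 8 mice), and without the 2 farthest mice at 0.29 and 0.48. Its log2 fold change was 0.28 (SE 0.20), and 0.15 with the acinar score as a covariate or without M149. Rgs17, which acts on Gi and Gz, was at 4.13 to 7.28 CPM and 4.35 to 8.94 CPM, a log2 fold change of 0.07 (SE 0.26).

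Among the 11 RGS genes outside the 10 members, Rgs1, Rgs3, Rgs12, Rgs19 and Rgs20 were tested, and 3 had a higher and 2 a lower mean with log2 fold changes from -0.19 to 0.56. In edgeR 0 of these 5 genes had an unadjusted p under 0.05. Rgs6, Rgs13, Rgs14, Rgs18 and Rgs22 did not pass the filter, with at most 24 counts in any mouse, and Rgs21 had 0 counts in all 8. Over the 14 tested RGS genes other than Rgs16, 7 were higher and 7 lower, with a median log2 fold change of -0.03, where the median over all genes was 0.01.

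Within the groups the members fell into sets that varied together from mouse to mouse. For this, the group mean was subtracted from log2 CPM, so that the difference that chose Rgs16 does not enter, and the correlations are descriptions over 8 mice that share libraries and were picked out after all 45 pairs were seen. Rgs9 and Rgs11 varied together (Pearson r = 0.94, Spearman rho = 0.93), and Rgs16 varied with Rgs9 (r = 0.86, rho = 0.83) and with Rgs11 (r = 0.75, rho = 0.74). Rgs4, Rgs7, Rgs8 and Rgs17 made up another set, with r between 0.54 and 0.87 over its 6 pairs. The place of Rgs8 in it rested on the βIgf1rKD mice, where its r with Rgs4, Rgs7 and Rgs17 was 0.93 to 0.97, against 0.34, 0.07 and -0.14 in the βIgf1r mice (4 mice each). Rgs5 was close to some of this set, with r = 0.80 for Rgs17 and 0.66 for Rgs7, but not to Rgs8 (r = 0.03). Rgs2, placed in neither set, varied with Rgs16 (r = 0.64, rho = 0.74) and less with Rgs9 (r = 0.46) and Rgs11 (r = 0.22). Between the sets r lay between -0.51 and 0.10 over 12 pairs, and the median over all 45 pairs was 0.16. Within a single group r rests on 4 mice, and whether r differs between the groups was not tested. For Rgs4 with Rgs16, Rgs9 and Rgs11, r was -0.91, -0.93 and -0.93 in the βIgf1r mice. In the βIgf1rKD mice it was 0.24, 0.49 and 0.06 (4 mice each). Rgs8 with Rgs11 went the other way, at 0.03 in βIgf1r and -0.24 in βIgf1rKD mice. Without the 2 mice farthest from the median of the first gene, r was 0.87 for Rgs9 with Rgs11, 0.79 for Rgs7 with Rgs17, 0.64 for Rgs16 with Rgs9 and 0.38 for Rgs16 with Rgs11. For Rgs16 with Rgs2 it was 0.56.

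**Figure D4:**
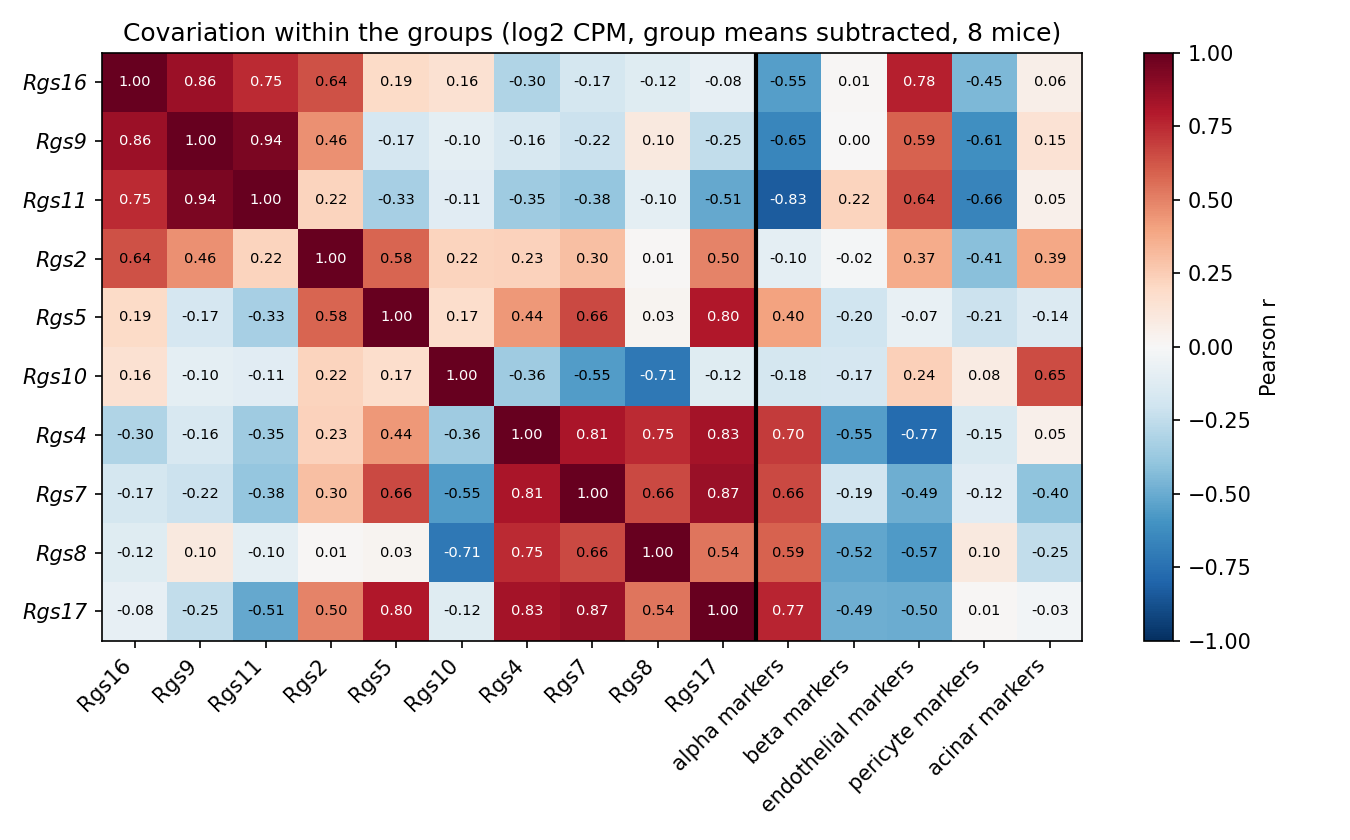
Pearson correlation of log2 CPM over the 8 mice after subtracting each group's mean, among the 10 RGS genes (left of the line) and between them and the summed CPM of marker lists (right). Rgs16, Rgs9 and Rgs11 are correlated at 0.75 to 0.94, Rgs4, Rgs7, Rgs8 and Rgs17 at 0.54 to 0.87, and α-cell markers are positive with the second set and negative with the first, where the relation rests on 2 mice.

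Markers of α-cells and of endothelial cells were correlated with these sets in opposite directions. The list of 7 genes, of which Gcg makes up most, summed to 13087 to 40555 CPM, lowest in M149 and highest in M151. After subtracting group means it was correlated with Rgs17 at r = 0.77 (rho = 0.83), with Rgs4 at r = 0.70 (rho = 0.81) and with Rgs7 at r = 0.66 (rho = 0.88), and without the 2 mice farthest from its median these values were 0.96, 0.95 and 0.88. Rgs11 went the other way at r = -0.83 (rho = -0.83), Rgs9 at r = -0.65 (rho = -0.62) and Rgs16 at r = -0.55 (rho = -0.48). The negative relations rested on the 2 farthest mice, since without them r was -0.31, 0.11 and 0.08. As a background, 5.82% of 13729 genes had a higher r with the α-cell sum than Rgs17, and 97.6% had a higher r than Rgs11. The endothelial sum was correlated positively with Rgs16 (r = 0.78, rho = 0.57), Rgs11 (r = 0.64, rho = 0.64) and Rgs9 (r = 0.59, rho = 0.48) and negatively with Rgs4 (r = -0.77, rho = -0.81), Rgs8 (r = -0.57, rho = -0.74), Rgs17 (r = -0.50, rho = -0.55) and Rgs7 (r = -0.49, rho = -0.69). Without the 2 mice farthest from its median, r was 0.09 for Rgs16, -0.01 for Rgs11 and -0.31 for Rgs9, and between -0.99 and -0.55 for the other 4 genes. The part of these cell types in the levels was not tested. With the α-cell marker score as a covariate, an alternative added after these relations were seen, the log2 fold changes of Rgs16, Rgs4 and Rgs7 were -0.93, 0.72 and -0.15.

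**Figure D5:**
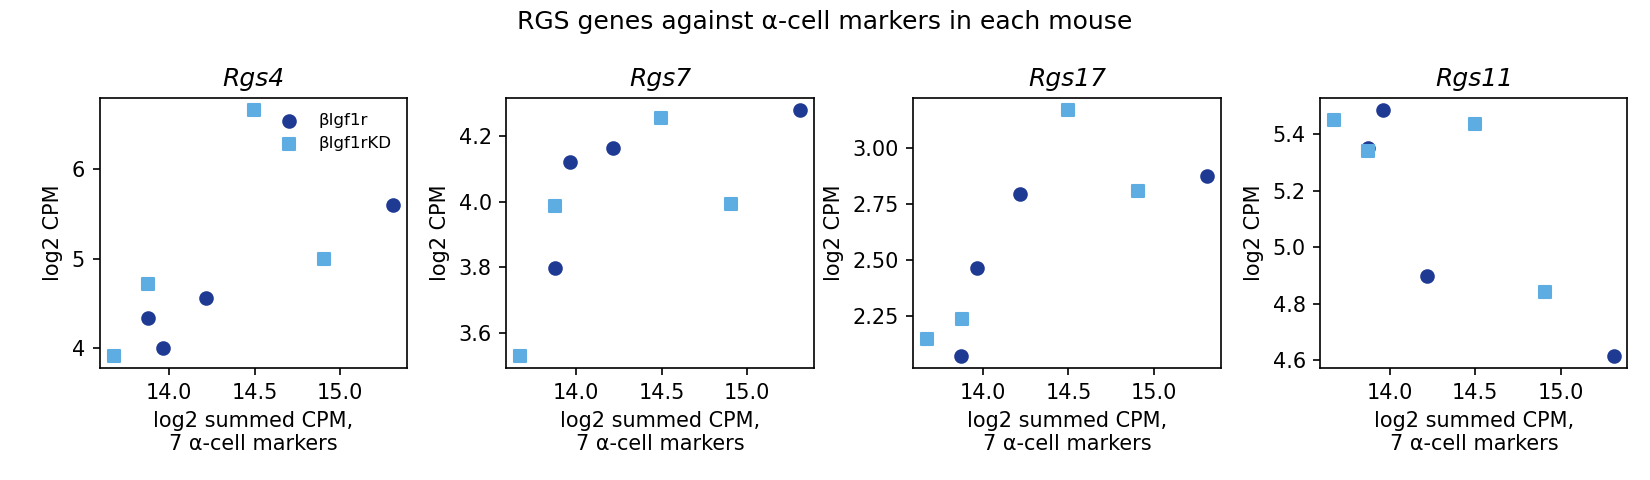
Log2 CPM of Rgs4, Rgs7, Rgs17 and Rgs11 against the log2 of the summed CPM of 7 α-cell markers, 1 point per mouse, dark circles for βIgf1r and light squares for βIgf1rKD. The 4 genes were picked after their relations were seen, and the first 3 rise with the α-cell sum whereas Rgs11 is lowest in M151, the mouse with the highest sum of 40555 CPM.

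The spread between mice of the same group also differed among the members. The within-group SD of log2 CPM was 0.95 for Rgs4 and 0.81 for Rgs2, and among the 500 tested genes closest in level 0.6% and 0.2% had a larger one. It was 0.35 for Rgs11, where 4% of such genes were more variable, 0.27 for Rgs16 with 11.6%, and 0.19 for Rgs5 with 29.8%. Rgs10, at 0.21, was steadier than most genes of its level, 87.2% of which had a larger SD.

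The genes whose pattern was most like that of Rgs16 were named by the highest Pearson correlation of log2 CPM with it, among 13728 other genes with a mean of at least 1 CPM. Over the 8 mice they were Pcyt1b (r = 0.97), Slc6a6, a taurine transporter (r = 0.96), 3425401B19Rik (r = 0.95) and Zbtb14 (r = 0.94), with Spearman rho between 0.79 for Zbtb14 and 1 for 3425401B19Rik. This measure holds the group difference. After group means were subtracted the nearest were Srsf6, a splicing factor (r = 0.99), Slc43a3 (r = 0.96), Lrrc8d, a subunit of volume-regulated anion channels (r = 0.95), and Enpp6 (r = 0.95), with rho of 0.98, 0.95, 0.95 and 0.95. Of the 13728 genes, 25 exceeded r = 0.9 by the former measure and 29 by the latter.

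The upstream sequences of the members were compared as a further feature that the choice of genes did not use. RefSeq promoters (GRCm38.p6) were matched for 9 of the 10 members, Rgs11 being the exception, and the 240 bases from 250 to 11 before the start were searched on both strands for 4 motifs, none of which overlap in the sequences shown. The first motif was CCAAT, which NF-Y binds. The second was the E-box CACGTG, to which bHLH factors bind. The third was the full cAMP response element TGACGTCA. The fourth was a form of the TATA box with the letters TATAAA. The first occurred for 6 of the 9 members, Rgs16, Rgs2, Rgs4, Rgs5, Rgs8 and Rgs9, or 7 of the 11 promoters of the 9 members (Rgs8 has 3), and in 33.0% of all 32851 promoters. The TATA box occurred for Rgs4 and Rgs9 and in 12.1% of all promoters, the E-box for Rgs7 and in 5.69%, and the cAMP response element for 0 members and in 1.44%. The sequences of Rgs16, of Rgs9 as the member nearest to it within the groups, and of the neighbours Rgs5 and Rgs4 are shown. They read 5′ to 3′ on the strand of the gene, with matches in capitals. They are chr1:153740103-153740342 (plus strand), chr11:109298192-109298431 (minus strand), chr1:169655251-169655490 (plus strand) and chr1:169747653-169747892 (minus strand).
Rgs16: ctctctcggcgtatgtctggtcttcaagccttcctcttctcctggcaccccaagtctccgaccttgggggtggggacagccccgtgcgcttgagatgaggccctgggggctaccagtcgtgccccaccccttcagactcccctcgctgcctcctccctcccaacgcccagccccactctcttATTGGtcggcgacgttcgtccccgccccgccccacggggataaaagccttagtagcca
Rgs9: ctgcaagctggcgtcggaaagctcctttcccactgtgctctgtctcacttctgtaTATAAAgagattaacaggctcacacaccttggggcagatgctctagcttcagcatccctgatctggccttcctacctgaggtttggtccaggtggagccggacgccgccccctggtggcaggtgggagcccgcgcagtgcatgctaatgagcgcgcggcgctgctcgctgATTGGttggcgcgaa
Rgs5: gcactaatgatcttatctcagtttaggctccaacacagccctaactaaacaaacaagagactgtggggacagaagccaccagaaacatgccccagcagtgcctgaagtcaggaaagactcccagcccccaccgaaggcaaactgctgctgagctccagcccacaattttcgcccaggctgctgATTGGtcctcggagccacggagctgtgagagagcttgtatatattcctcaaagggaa
Rgs4: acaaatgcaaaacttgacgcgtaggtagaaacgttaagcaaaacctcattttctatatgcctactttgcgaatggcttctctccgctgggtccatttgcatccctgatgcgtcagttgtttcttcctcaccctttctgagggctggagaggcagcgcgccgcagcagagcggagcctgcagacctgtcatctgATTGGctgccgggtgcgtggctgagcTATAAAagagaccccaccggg
In Rgs16, Rgs9, Rgs5 and Rgs4 the match to the first motif lies on the reverse strand and is read as ATTGG. A match to these letters is a description and does not show that a factor binds there.

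Partners of RGS proteins and genes of G protein signaling were taken from lists. The list of α subunits holds 13 genes of all G protein classes, not only those on which RGS proteins act. All 13 were tested, 7 with a higher and 6 with a lower mean in βIgf1rKD islets. Their median log2 fold change was 0.01, and 0 had an unadjusted p under 0.05. Those nearest to it were Gna15 with a log2 fold change of 0.51 (SE 0.33) and Gnal with -0.39 (SE 0.30). Gnao1 and Gnai2, the most abundant inhibitory α subunits by counts, were at 335 and 264 CPM in βIgf1r islets and 337 and 296 CPM in βIgf1rKD islets. Of 6 partners and anchors of RGS proteins 5 were tested, and 0 passed. Gnb5, the obligate partner of the R7 proteins, was at 22.8 and 21.4 CPM, and the orphan receptor Gpr158, which holds R7 proteins at the membrane, at 82.4 and 71.7 CPM (log2 fold change -0.20, SE 0.10). For the scaffold Ppp1r9b (spinophilin) it was 0.13 (SE 0.14).

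Among effectors, 16 of 17 adenylyl cyclases, phospholipases C and GIRK channel genes were tested, 6 higher and 10 lower with a median of -0.03, and 0 had an unadjusted p under 0.05. The smallest p in each direction belonged to Adcy4 (log2 fold change -0.29, SE 0.15) and Kcnj5 (1.25, SE 0.76). Of 15 receptors that signal through inhibitory G proteins 11 were tested, 6 higher and 5 lower, and 0 passed. Adora1, the adenosine receptor, was the gene without overlap between the groups, at 27.8 and 31.5 CPM (log2 fold change 0.18, SE 0.08), where 0.956% of all genes did not overlap with the higher values in βIgf1rKD mice. For Galr1, the galanin receptor, it was -0.23 (SE 0.16). Of 10 genes of receptors that signal through Gq 9 were tested, 2 higher and 7 lower. Of the 9 genes 1 had an unadjusted p under 0.05 with the lower mean in βIgf1rKD islets, where 1.89% of all genes did. It was Agtr1a, an angiotensin receptor, at 1.39 and 0.705 CPM (log2 fold change -0.97, SE 0.42, edgeR, adjusted p = 0.987). Its groups overlapped, and it had 11 to 62 counts per mouse. Chrm3 was at 35.7 and 35.1 CPM.

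Rgs16 is known in liver as a target of ChREBP, a transcription factor that responds to glucose, and 12 genes of ChREBP and its known targets were therefore listed. All 12 were tested, 4 with a higher and 8 with a lower mean in βIgf1rKD islets, and the median log2 fold change was -0.05. In edgeR 1 of the 12 had an unadjusted p under 0.05 with the higher mean in βIgf1rKD islets, and 0 with the lower. Over all genes these shares were 2.23% and 1.89%. Txnip, named because its log2 fold change was the lowest of the 12, was at 716 and 329 CPM. Its log2 fold change was -1.12 (SE 0.53, edgeR, adjusted p = 0.987), and its groups overlapped. Pklr, the pyruvate kinase of liver, and Fasn, the fatty acid synthase, given for comparison, had log2 fold changes of 0.08 (SE 0.10) and -0.06 (SE 0.15).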

How the data were processed

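RNA-seq of islets from 8 mice was analysed. The authors deposited an estimated count per Ensembl gene and mouse from stranded mRNA libraries, not scaled between mice. The submitters' processing notes name fastp, kallisto and GRCm38, and their versions, the strand setting and the annotation release are not given in the sources used here. Counts were rounded. Of 53012 identifiers 51906 matched a symbol, and 200 that share a symbol were kept under their identifier. The lowest chi-square per degree of freedom between mice of a group was 72.9, so that no library was a copy of another.

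edgeR 4.0.16 in R 4.3.3 kept genes with its default filter, a minimum total of 15 and a minimum CPM in at least 4 mice. This CPM equals 10 counts at the median library size. Scaling was by TMM, and the groups were compared by the quasi-likelihood test of edgeR with Benjamini-Hochberg adjustment over the 15474 genes. Standard errors come from the fold change and F statistic. CPM use TMM factors, log2 CPM a prior count of 2. A marker score is the mean z-score of a list. The alternatives were DESeq2 1.42.0, voom in limma 3.58.1, RLE scaling, other filters, Xist or marker scores as covariates and each mouse left out. Plots were drawn with matplotlib 3.10.9. The members and lists were chosen with earlier results of these data known. Genes named outside the family are the target, those of the lists at an unadjusted p under 0.05 or with the smallest p in each direction, and the 4 genes most like Rgs16 by each of 2 measures. A few others are said to be named because of their values or are given for their level. One gene that this rule names is not reported here. The authors' other experiments were not analysed here.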

Additional observations from a re-analysis of the deposited data

Results flagged for a closer look

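For the 15 RGS genes with enough counts, the extreme mouse of each group of 4 was set against its neighbours. Of 30 such groups 1 held a value that stood apart, and 1.5 would be flagged by chance alone (about 1 in 20). The gene was Rgs12, which is not among the 10 members, at a log2 CPM of 1.35 in βIgf1rKD mouse M145 against 2.06 to 2.19 in M146, M149 and M150, a gap of 0.841 of the range. M145 also had the most Rgs4 of all 8 mice, at 101 CPM.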

How the results depend on the processing

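No paired analysis was possible because the groups share no mouse numbers. Of the 18 alternatives run for Rgs16, all 18 gave a negative log2 fold change, from -1.11 to -0.40. These fits use the values that chose Rgs16, so their shared sign is a description and not support. The value nearest to 0, -0.40 (SE 0.25), came when the endothelial marker score was a covariate. Leaving out each mouse gave -1.06 to -0.78. The count of genes at an adjusted p under 0.05 was 8 with DESeq2 and 1 with limma-voom in place of 0. The count at an unadjusted p under 0.05, 637 in the report, was 1098 with no filter on low counts (27738 genes fitted), 1143 with Xist as a covariate, 390 with the acinar and 349 with the pericyte marker score, and 377 to 1094 when each mouse was left out, lowest without M148 (377), 396 without M153 and highest without M152 (1094). The causes were not tested.

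Signs turned as follows. With the endothelial score the log2 fold change was -1.62 for Rgs4, 0.061 for Rgs9, -0.52 for Rgs17, 0.28 for Rgs12 and 0.037 for Igf1r. With Xist it was -0.16 for Rgs17 and 0.023 for Igf1r, with the pericyte score -0.14 for Rgs11, and with the acinar score -0.11 for Rgs1. Without M145 it was -0.14 for Rgs4, -0.15 for Rgs17 and 0.012 for Rgs12, without M152 -0.07 for Rgs17 and without M149 -0.048 for Rgs19. Leaving out each mouse gave -0.15 to -0.01 for Igf1r, -0.14 to 1.13 for Rgs4 (highest without M151), -0.15 to 0.20 for Rgs17, -0.23 to 0.012 for Rgs12 and -0.048 to 0.17 for Rgs19. Requiring 10 counts in every mouse left 14091 genes and no value for Rgs8 and Rgs20, which had 6 to 29 and 9 to 17 counts per mouse.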
